A study of Homo sapiens with 9 samples.

Results

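Clustered histone genes were described in poly(A) RNA of MEG-01 cells, megakaryoblasts grown from the blast crisis of a human chronic myeloid leukaemia. The members were chosen by symbol alone, as linker H1 genes of the clusters and genes named H2AC, H2BC, H3C or H4C followed by a number. They numbered 69 of 63241 genes in the deposited tables, and 55 of them lie on chromosome 6 and 13 on chromosome 1. H4C16 lies on chromosome 12. The 3 groups were untreated control cells, cells treated with As2S2 (arsenic disulfide) and cells treated with PMA (a phorbol ester that activates protein kinase C), with 3 libraries each. The labels give neither dose nor time of treatment. They describe all samples as bone marrow megakaryoblasts of this 1 line. Nothing in the labels makes the libraries of a group separate cultures, so a p-value here measures a spread that may be only technical.

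Core histones H2A, H2B, H3 and H4 form the nucleosome, and linker histone H1 binds the DNA that enters and leaves it. The clustered genes are transcribed mainly in S phase, when new DNA must be packed, from a nuclear compartment called the histone locus body. Their usual mRNA is the only cellular mRNA of animals without a poly(A) tail: it ends shortly after a conserved stem-loop that is bound by the stem-loop binding protein SLBP. Some of these genes also give longer transcripts that run past the stem-loop to a polyadenylation signal, above all in cells that leave the cycle. Libraries made by poly(A) selection, as here, capture the tailed forms and little of the tailless ones, so a value below is not the total histone mRNA of a gene. The balance of tailed and tailless transcripts was not measured in these libraries.

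Total counts per library ran from 18.2 to 20.37 in units of 1e6. Of 13 megakaryocyte marker genes, 11 had at least 10 counts in 3 or more libraries, with PF4 and VWF below that. All 6 erythroid markers had such counts, and their summed level was 2960 to 3460 CPM (counts per 1e6 counts of a library, scaled by TMM) in control libraries, 4220 to 4600 with As2S2 and 19200 to 20500 with PMA. Of 4 granulocyte markers, 0 reached that depth, and the B cell gene MS4A1 was at 0 in every library. The part of this erythroid difference in the histone values was not tested. On the third principal component, control replicate 2 (at -22.9) and As2S2 replicate 1 (at 17.4) stood apart from their groups.

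Promoters of 5 members show the sequence setting of some genes described below: the linker gene H1-2, the H2B genes H2BC11 and H2BC12, the H2A gene H2AC18 and the H4 gene H4C8. Each window runs from 250 bases before to 50 bases after the annotated start in RefSeq (GRCh38.p14), 5′ to 3′ on the strand of the gene. Capitals mark the TATA box TATAAA, the CCAAT box, the H1 box AAACACA and the octamer ATTTGCAT. Each was searched on both strands, so a motif on the other strand stands as its reverse complement. Motifs may overlap one another. The windows are chr6:26056421-26056720 (H1-2), chr6:27132746-27133045 (H2BC11), chr6:27146809-27147108 (H2BC12), chr1:149842701-149843000 (H2AC18) and chr6:26285485-26285784 (H4C8), all on the minus strand.
H1-2: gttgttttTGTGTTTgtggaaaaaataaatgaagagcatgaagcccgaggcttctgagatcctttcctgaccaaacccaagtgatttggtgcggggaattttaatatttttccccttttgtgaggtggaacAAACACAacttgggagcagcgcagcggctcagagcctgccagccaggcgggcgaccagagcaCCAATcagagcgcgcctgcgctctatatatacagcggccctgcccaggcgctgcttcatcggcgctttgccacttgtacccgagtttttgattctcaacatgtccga
H2BC11: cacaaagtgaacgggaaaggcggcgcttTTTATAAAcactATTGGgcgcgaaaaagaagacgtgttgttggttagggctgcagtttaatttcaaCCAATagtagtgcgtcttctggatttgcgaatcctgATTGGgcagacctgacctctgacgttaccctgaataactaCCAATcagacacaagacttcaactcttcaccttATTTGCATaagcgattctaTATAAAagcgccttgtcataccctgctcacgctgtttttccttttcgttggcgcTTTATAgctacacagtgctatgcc
H2BC12: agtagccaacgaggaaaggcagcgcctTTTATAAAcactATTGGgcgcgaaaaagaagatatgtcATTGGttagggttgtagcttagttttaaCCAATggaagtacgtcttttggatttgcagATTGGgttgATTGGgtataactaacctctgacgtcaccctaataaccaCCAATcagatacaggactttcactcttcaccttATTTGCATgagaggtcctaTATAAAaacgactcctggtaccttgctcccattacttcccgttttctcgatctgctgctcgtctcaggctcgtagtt
H2AC18: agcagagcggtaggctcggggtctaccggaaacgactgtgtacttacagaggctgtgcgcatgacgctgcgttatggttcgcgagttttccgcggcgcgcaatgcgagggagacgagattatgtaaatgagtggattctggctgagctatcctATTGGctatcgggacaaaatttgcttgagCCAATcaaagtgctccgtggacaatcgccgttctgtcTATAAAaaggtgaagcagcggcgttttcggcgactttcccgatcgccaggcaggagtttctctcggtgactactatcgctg
H4C8: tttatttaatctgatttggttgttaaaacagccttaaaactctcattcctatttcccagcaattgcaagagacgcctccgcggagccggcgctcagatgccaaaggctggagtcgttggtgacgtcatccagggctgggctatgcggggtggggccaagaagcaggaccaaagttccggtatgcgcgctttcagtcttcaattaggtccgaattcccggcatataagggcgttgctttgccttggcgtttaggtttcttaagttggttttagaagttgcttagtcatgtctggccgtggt
In the H1-2 window the H1 box stood at -242 and -119 from the start and CCAAT at -57 (first base of each match). H2BC11 and H2BC12 both held an octamer shortly upstream of a TATAAA. The H4C8 window held none of the 4 motifs, which says only that these letters are not in it.

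The promoter table held 68 windows for 64 members, with a pair of windows each for 4 of them. The other 5 members were not matched. TATAAA was present in 66.2% of member windows and in 11.5% of the 35116 windows of the same length for all genes. CCAAT was present in 85.3% against 34.6%, in every window of H1, H2A, H2B and H3 members and in 3 of 13 windows of H4 members. The H1 box was found in 6 of 6 windows of H1 members and in 5.64% of all windows. The octamer, a binding sequence of POU2F1 (OCT1), was found in 15 of 20 windows of H2B members, 11 of 16 of H2A members and 1.77% of all windows. At -149 or nearer before the start, it stood in 15 of 20 windows of H2B members and in 5 of 16 of H2A members. In H2AC8, H2AC11, H2AC14, H2AC16, H2AC20 and H2AC21 it lay farther away, between -208 and -192. A match is a description of letters and not a measured binding site. The members also lie close together: 12 pairs of them had overlapping windows on opposite strands, among them H2BC4 with H2AC6 and H2BC21 with H2AC20. A motif in such an overlap was counted in both windows, as was the octamer shared by H2BC8 and H2AC8.

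The 3′ ends matter here because the stem-loop marks where the tailless mRNA would stop. Of the tested members, 13 have an annotated model with the loop at no more than 1 mismatch. The next sequences are 8 of them, chosen to run from models that end near the loop to models that extend far past it. The loop is in capitals, with 5 transcript bases on either side, 5′ to 3′ in DNA letters from GENCODE 29 transcripts.
H2AC6: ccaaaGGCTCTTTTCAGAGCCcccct
H2BC21: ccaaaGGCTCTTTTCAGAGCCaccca
H3C10: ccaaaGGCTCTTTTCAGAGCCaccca
H3C6: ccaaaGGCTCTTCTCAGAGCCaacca
H2AC25: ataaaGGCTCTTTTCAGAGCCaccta
H2BC4: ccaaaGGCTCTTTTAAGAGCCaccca
H2BC5: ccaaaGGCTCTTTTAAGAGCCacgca
H2AC8: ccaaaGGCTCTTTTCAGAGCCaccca
A stem-loop with at most 1 mismatch to the 16 capitals of the H2AC6 line was present in an annotated model of 21 of the 65 members matched in GENCODE 29. Over models this was 26.6% of 94, against 0.0218% of 206534 transcripts of all genes. With up to 2 mismatches it was 37.2% against 0.132%. The models added were of H4C2, H4C5, H4C8, H4C11 and H4C16, so the limit of 1 mismatch left these H4 genes out. Of the 44 members with none at the limit of 1 mismatch, 35 have a longest model that is a multiple of 3 bases long. A coding sequence without untranslated ends would have such a length and would not hold the loop. The length alone does not show this: the 35 include H4C8 (2163 bases) and H4C2 (438 bases), whose models hold it at 2 mismatches. Annotated models ran on past the loop by 1729 bases in H2BC21, 1128 in H2AC6, 1862 in H3C6 and 769 in H3C10. They ran on by 390 bases in H2AC25 and 116 in H2BC4, and stopped within 51 bases in H2AC8 and 39 in H2BC5. H2BC5 and H2BC4 also have longer models of 789 and 659 bases that lack the loop and hold the polyadenylation signal AATAAA. The authors' annotation is not given in the sources used here, and these models describe the genes and not the reads.

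Most members gave almost no reads. At least 10 counts in 3 or more libraries were found for 27 of 69: 1 of 6 H1, 6 of 17 H2A, 9 of 18 H2B, 3 of 13 H3 and 8 of 15 H4 members. These 27 were also the members that passed the edgeR filter on low counts and were tested. Of the 27, 17 had 10 or more counts in all 9 libraries, so the others could have passed through the groups in which they are high. The counts below describe the members that passed and not all 69.

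Among the 42 untested members, 6 had 0 counts in all 9 libraries (H2AC19, H2AC21, H3C14, H4C6, H4C7 and H4C13). With 173.2 counts in units of 1e6 over the 9 libraries, a count of 0 allows a level of up to 0.0173 CPM (3 counts, counting error only). This limit does not cover reads assigned to a near-identical copy, as may be so for H2AC19 beside H2AC18. The highest count of an untested member in any library was 15.26, for H2AC7. Summed over all 42, counts came to 123.18 in control, 182.24 in As2S2 and 296.24 in PMA libraries. The 5 untested H1 members never exceeded 6 counts in a library and summed to 15, 15 and 16 counts over the control, As2S2 and PMA libraries. Among untested H3 members, H3C3 had 1, 3 and 2 counts in control, 2 in each As2S2 library and 10, 9 and 13 with PMA.

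With As2S2, 15 of the 27 tested members rose and 1 fell at an adjusted p under 0.05 (quasi-likelihood test of edgeR, Benjamini-Hochberg adjustment over 14592 genes), and 11 did not pass. Over all genes tested, 20.3% rose and 19.6% fell. With PMA, 20 members rose and 0 fell, against 30.8% and 31.1% of all genes, and 7 did not pass. At an unadjusted p under 0.05 the number that fell with PMA was also 0, and it was 0 with DESeq2 and with limma-voom. The median log2 fold change of the 27 was 0.73 with As2S2 and 1.25 with PMA, while the median over all genes was 0.0 in both. The 2 comparisons share the control libraries, so their values stand side by side and are not independent of each other. In these bulk libraries, a change in the share of cells that make a transcript and a change of its level per cell cannot be told apart.

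**Figure D1:**
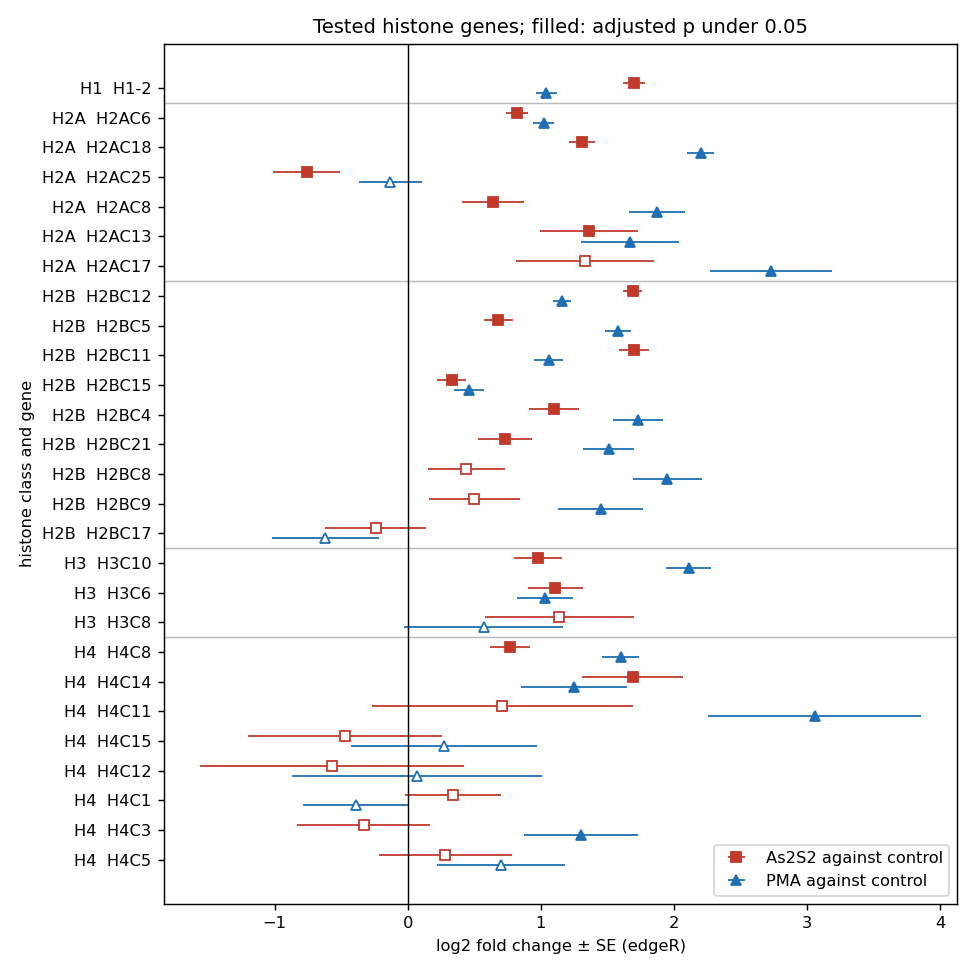
Log2 fold change against control (x axis, edgeR, with SE) of each tested histone gene by class (y axis), squares for As2S2 and triangles for PMA; filled symbols passed an adjusted p under 0.05. Most filled symbols lie to the right of 0, with H2AC25 at -0.76 with As2S2 on the left.

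Of the 27, 15 rose with both treatments: H1-2, H2AC6, H2AC8, H2AC13, H2AC18, H2BC4, H2BC5, H2BC11, H2BC12, H2BC15, H2BC21, H3C6, H3C10, H4C8 and H4C14. The share of all genes that rose with both treatments was not counted, and both comparisons use the same control libraries. These 15 are therefore a list of members and not a measure of overlap. H2AC17, H2BC8, H2BC9, H4C3 and H4C11 rose with PMA and did not pass with As2S2. H2AC25 fell with As2S2 and did not pass with PMA. H2BC17, H3C8, H4C1, H4C5, H4C12 and H4C15 passed in neither. By class, the members that rose were 1 of 1 H1, 4 of 6 H2A, 6 of 9 H2B, 2 of 3 H3 and 2 of 8 H4 with As2S2. With PMA they were 1 of 1 H1, 5 of 6 H2A, 8 of 9 H2B, 2 of 3 H3 and 4 of 8 H4.

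H1-2, a replication-dependent linker histone and the 1 tested H1 member, gave the most reads of the members. It stood at 195, 231 and 200 CPM in control, 617, 717 and 700 with As2S2 and 448, 426 and 414 with PMA. The 3 groups did not overlap, with As2S2 highest. Its log2 fold change was 1.70 ± 0.08 (SE) with As2S2 (adjusted p = 2.9e-10, edgeR) and 1.04 ± 0.08 with PMA (adjusted p = 1.08e-08).

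**Figure D2:**
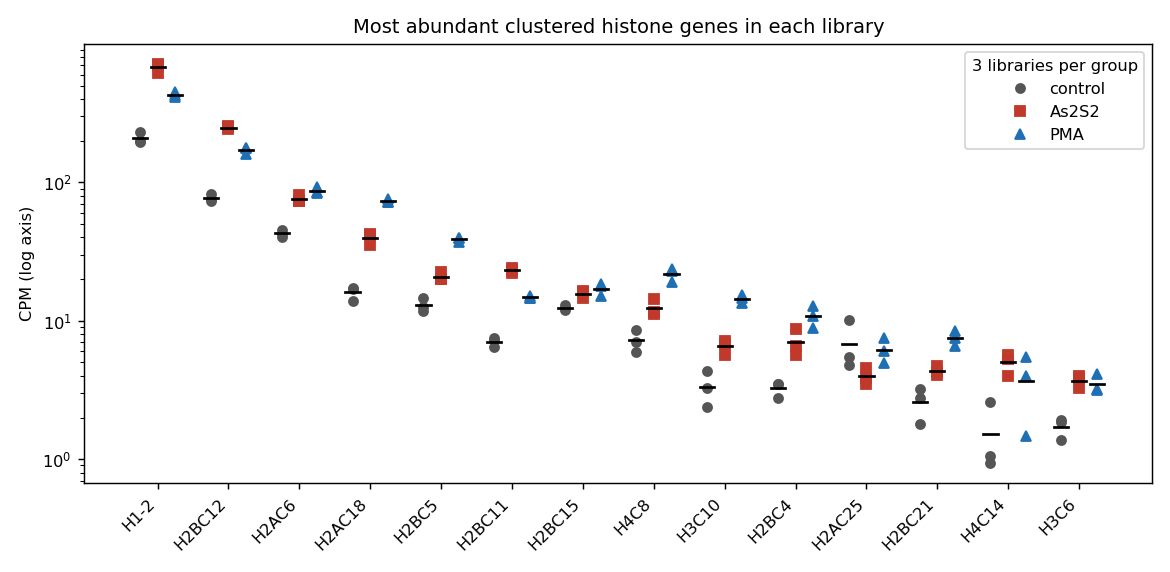
CPM on a log axis (y axis) of the 14 tested histone genes with the highest mean level (x axis), 1 point per library, with a bar at the mean of 3 libraries per group. H1-2 and H2BC12 are highest with As2S2, and H2AC18 and H2BC5 with PMA.

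Among H2A members, H2AC18 and H2AC6 gave the most reads. H2AC18 stood at 13.9, 17.2 and 17 CPM in control, 35.0, 41.7 and 42.6 with As2S2 and 72.7, 72.6 and 75.5 with PMA. The groups did not overlap and PMA was highest, with log2 fold changes of 1.31 ± 0.10 with As2S2 (adjusted p = 1.14e-07, edgeR) and 2.20 ± 0.10 with PMA (adjusted p = 2.66e-11). H2AC19 encodes the same protein and was listed at 0 in every library; which of these near-identical copies the reads came from cannot be told apart.

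H2AC6, whose annotated models extend far past the stem-loop, stood at 42.2, 40.6 and 45.4 CPM in control, 81.0, 73.0 and 72.8 with As2S2 and 83.3, 92.0 and 84.7 with PMA. All treated libraries lay above all controls, and the As2S2 values came close to the PMA values without overlap. Its log2 fold change was 0.82 ± 0.08 with As2S2 (adjusted p = 9.88e-07, edgeR) and 1.02 ± 0.08 with PMA (adjusted p = 1.58e-08).

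H2AC25 (a gene on chromosome 1 away from the main cluster) went the other way with As2S2. Its control libraries stood at 5.45, 10.1 and 4.76 CPM, its As2S2 libraries at 3.86, 3.52 and 4.55, and its PMA libraries at 7.46, 6.07 and 4.95. Control replicate 2 was the highest of all 9, and PMA overlapped the controls. The log2 fold change with As2S2 was -0.76 ± 0.25 (adjusted p = 0.0225, edgeR). Without control replicate 2, which stood apart, it was -0.36 with an adjusted p of 0.136, and without As2S2 replicate 1 it was -0.74 with 0.0602. Without As2S2 replicate 2 it was -0.67 with an adjusted p of 0.0843.

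The lower H2A members rested on few reads. H2AC8 rose by 0.64 ± 0.23 log2 with As2S2 (adjusted p = 0.0376, edgeR) and by 1.87 ± 0.21 with PMA (adjusted p = 1.16e-06), from a control mean of 1.32 CPM. H2AC17 stood at 0.0462 to 0.267 CPM in control, 0.366 to 0.504 with As2S2 and 1.05 to 1.27 with PMA. It rose with PMA by 2.73 ± 0.46 log2 (adjusted p = 7.49e-05, edgeR), and with As2S2 its value was 1.33 ± 0.52 with an adjusted p of 0.0523. The promoter window of H2AC17 overlaps that of H2BC17 on the other strand, and H2BC17 did not pass with either treatment.

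Among H2B members, H2BC12 led. It stood at 73.1, 82.2 and 75.3 CPM in control, 241, 250 and 254 with As2S2 and 161, 178 and 176 with PMA. The groups did not overlap and As2S2 was highest. The log2 fold change was 1.69 ± 0.07 with As2S2 (adjusted p = 8.39e-11, edgeR) and 1.16 ± 0.07 with PMA (adjusted p = 7.99e-10). In the RefSeq gene table (GRCh38.p14) the span of H2BC12 overlaps that of H4C9, which had at most 4 counts in a library.

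H2BC11, whose promoter is printed above beside that of H2BC12, had the same order at a lower level: 6.42, 7.24 and 7.56 CPM in control, 22.1, 24.0 and 23.2 with As2S2 and 15.2, 14.7 and 14.5 with PMA. Its log2 fold change was 1.70 ± 0.11 with As2S2 (adjusted p = 7.4e-09, edgeR) and 1.06 ± 0.11 with PMA (adjusted p = 3.67e-07).

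H2BC5 had the other order. It stood at 11.7, 12.6 and 14.6 CPM in control, 22.4, 20.1 and 20.0 with As2S2 and 39.8, 39.5 and 37.2 with PMA. No groups overlapped, and PMA was highest, with log2 fold changes of 0.68 ± 0.11 (adjusted p = 8.94e-05, edgeR) and 1.58 ± 0.10 (adjusted p = 1.62e-09). H2BC21, H2BC4, H2BC8 and H2BC9 also had higher means with PMA than with As2S2, with log2 fold changes against control between 1.45 and 1.95 with PMA and between 0.44 and 1.10 with As2S2.

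H2BC15 changed least among the H2B members that rose. It stood at 11.9, 12.3 and 13.1 CPM in control, 14.5, 16.3 and 16.1 with As2S2 and 15.1, 18.5 and 17.7 with PMA. The treated libraries all lay above the controls, and the As2S2 and PMA libraries overlapped. Its log2 fold change was 0.33 ± 0.11 with As2S2 (adjusted p = 0.0259, edgeR) and 0.46 ± 0.11 with PMA (adjusted p = 0.00171). With library totals in place of scaled totals neither passed, at 0.25 (adjusted p = 0.101) and 0.20 (adjusted p = 0.135). The PMA call also ended with the length trend removed (0.15, adjusted p = 0.243) and with length and GC trends removed (0.15, adjusted p = 0.181). The As2S2 call also ended without control replicate 1 (adjusted p = 0.0777), As2S2 replicate 2 (adjusted p = 0.084) or As2S2 replicate 3 (adjusted p = 0.0782). H2BC17 stood at 0.993 ± 0.413 CPM (SD, n = 3) in control, 0.845 ± 0.173 with As2S2 and 0.644 ± 0.239 with PMA, within the spread of the libraries.

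Of the H3 members, H3C10 and H3C6 gave most reads. H3C10 stood at 2.40, 4.34 and 3.29 CPM in control, 5.63, 7.20 and 6.85 with As2S2 and 15.3, 14.6 and 13.4 with PMA. The groups did not overlap and PMA was highest, with log2 fold changes of 0.98 ± 0.18 with As2S2 (adjusted p = 0.00052, edgeR) and 2.11 ± 0.17 with PMA (adjusted p = 2.78e-08). H3C6 stood at 1.85, 1.91 and 1.38 CPM in control, 3.29, 3.83 and 3.97 with As2S2 and 3.21, 4.10 and 3.17 with PMA. Both treatments lay above the controls and overlapped each other, at 1.11 ± 0.21 (adjusted p = 0.000484, edgeR) and 1.03 ± 0.21 (adjusted p = 0.000455). H3C8 had log2 fold changes of 1.14 ± 0.56 and 0.57 ± 0.60, and neither passed (adjusted p = 0.115 and 0.432).

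Among H4 members, H4C8 gave the most reads. It stood at 7.07, 5.95 and 8.59 CPM in control, 14.3, 11.6 and 11.2 with As2S2 and 19.2, 23.6 and 22.7 with PMA, without overlap. It rose by 0.77 ± 0.15 log2 with As2S2 (adjusted p = 0.000576, edgeR) and by 1.60 ± 0.14 with PMA (adjusted p = 7.72e-08). Its count was fractional in 5 libraries, and in all 9 it added up to a whole number with that of ENSG00000289447, within 0.011 counts, so reads were split between these gene models. H2BC4, fractional in 8 libraries, stood in the same relation to ENSG00000291336.

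H4C14 and H4C15 are near-identical copies on chromosome 1, and H4C11 and H4C12 neighbours on chromosome 6. Reads of such pairs are hard to place, whereas the tested H4C1, H4C3 and H4C5 had whole counts in all 9 libraries. H4C14 alone stood at 1.06, 0.931 and 2.58 CPM in control, 4.02, 5.29 and 5.70 with As2S2 and 1.48, 3.99 and 5.49 with PMA, and H4C15 at 1.89, 2.53 and 0.089, then 0.626, 1.51 and 1.05, then 3.15, 2.08 and 0.215. Where one copy of this pair was low in a PMA library the other was high. Their fractional counts added up to whole numbers in all 9 libraries: 64, 67 and 60 in control, 89, 135 and 129 with As2S2 and 75, 105 and 106 with PMA.

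Summed into 1 row, an alternative chosen after seeing the data, H4C14 with H4C15 rose by 1.0 ± 0.19 log2 with As2S2 (adjusted p = 0.00051, edgeR) and 0.86 ± 0.19 with PMA (adjusted p = 0.000993). Alone, H4C14 had 1.69 ± 0.38 (adjusted p = 0.00234) and 1.25 ± 0.40 (adjusted p = 0.012), and H4C15 -0.47 ± 0.73 (adjusted p = 0.646) and 0.27 ± 0.70 (adjusted p = 0.757). The PMA call of H4C14 alone ended without control replicate 1 (adjusted p = 0.0576) or PMA replicate 3 (0.83, adjusted p = 0.109), and with the length trend removed (adjusted p = 0.0534).

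H4C11 with H4C12 gave summed counts of 31, 25 and 27 (control), 14, 30 and 31 (As2S2) and 62, 81 and 91 (PMA). The PMA libraries lay above all others. The summed log2 fold change was -0.02 ± 0.29 with As2S2 (adjusted p = 0.961, edgeR) and 1.77 ± 0.25 with PMA (adjusted p = 1.31e-05). H4C11 alone had 3.06 ± 0.80 with PMA (adjusted p = 0.00343), with control values of 0, 0 and 1.20 CPM, and DESeq2 did not call it (adjusted p = 0.213). H2AC13 with H2AC14, a pair of the same kind, gave summed counts of 10 to 11 (control), 20 to 21 (As2S2) and 23 to 33 (PMA). The sum rose by 1.11 ± 0.32 (adjusted p = 0.0118, edgeR) and 1.62 ± 0.31 (adjusted p = 0.000296).

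The other H4 members were low. H4C3 stood at 0.277 to 0.667 CPM in control, 0.157 to 0.554 with As2S2 and 0.864 to 1.27 with PMA. It rose with PMA by 1.30 ± 0.43 log2 (adjusted p = 0.0146, edgeR), a call that ended without control replicate 1 (1.04, adjusted p = 0.0659), with the length trend removed (0.77, adjusted p = 0.134) and with length and GC trends removed (0.73, adjusted p = 0.141). H4C1 and H4C5 had means between 0.42 and 0.859 CPM in every group and passed in neither comparison.

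Summed by class, the histone members were a small share of each library. All 69 members held 0.0448% ± 0.00161 (SD, n = 3) of counts in untreated cells, 0.118% ± 0.00576 with As2S2 and 0.0838% ± 0.00108 with PMA. H1-2 and H2BC12 led these sums in every group. H1-2 held 50.3% of the member counts in untreated cells, 58.5% with As2S2 and 46.2% with PMA, and H2BC12 held 18.5%, 21.4% and 18.5%. H1 members held 0.0226% ± 0.00121, 0.0692% ± 0.00532 and 0.0388% ± 0.00102 of all counts, of which H1-2 was at least 99.9% in each group.

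H2B members together held 0.0128% ± 0.000474 of counts in untreated cells, 0.033% ± 0.000477 with As2S2 and 0.0242% ± 0.00127 with PMA. H2A members held 0.00736% ± 0.000315, 0.0127% ± 0.000143 and 0.0158% ± 0.000435 in the same order. H3 members held 0.000619% ± 0.000122, 0.00118% ± 0.000128 and 0.0018% ± 5.2e-05, and H4 members 0.00144% ± 0.00017, 0.00221% ± 3.73e-05 and 0.00311% ± 0.000378. So the H1 and H2B members had their highest sums with As2S2, and H2A, H3 and H4 members with PMA, without overlap between groups. No test was made of these sums. The order of a class can rest on 1 gene: H2BC12 held 64.9%, 76.8% and 64.0% of the H2B counts in control, As2S2 and PMA libraries. Without it, as chosen after seeing the data, the H2B sums were 0.00448% ± 0.000455, 0.00764% ± 0.000155 and 0.00874% ± 0.000337, highest with PMA. Without H3C10 or H4C8, the most abundant H3 and H4 members, the As2S2 and PMA sums of the class overlapped. H2A sums without H2AC6 kept PMA highest, at 0.00273% ± 0.000399, 0.00494% ± 0.000379 and 0.00803% ± 0.000176. In TPM, the H4 log2 ratios to control fell from 0.62 to 0.35 with As2S2 and from 1.11 to 0.68 with PMA. They are shares of unscaled totals, whereas the fold changes above use totals scaled by TMM, whose factors ran from 1.04 to 1.11 in control, 1.02 to 1.03 with As2S2 and 0.892 to 0.922 with PMA.

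**Figure D3:**
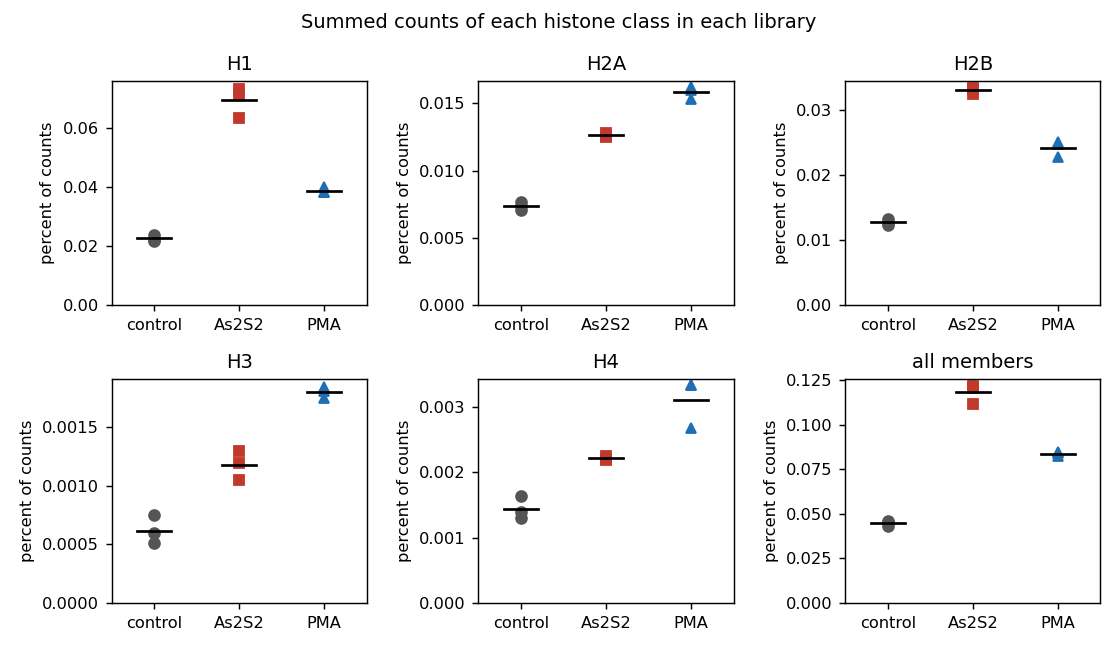
Percent of all counts (y axis, from 0) held by each histone class and by all members together in each library (1 point), with a bar at the mean of 3 libraries per group. H1, H2B and all members together are highest with As2S2, and H2A, H3 and H4 are highest with PMA.

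With library totals in place of TMM, an alternative added after seeing the data, the median log2 fold change of all genes was -0.08 with As2S2 and -0.26 with PMA. The median of the 27 members was then 0.64 and 0.99, which is 0.73 and 1.25 above the median of all genes. The counts became 13 that rose and 1 that fell with As2S2, and 19 and 0 with PMA.

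Per transcript length, the order of levels in control was H1-2 at 364 ± 12.6 TPM (length-scaled transcripts per 1e6, SD, n = 3), H2BC12 at 275 ± 2.45 and H2AC18 at 49.0 ± 4.67. H2BC5 at 28.3 ± 3.36 and H2AC6 at 27.6 ± 1.99 followed and did not differ beyond their spread. With PMA the order began with H1-2 at 538 ± 8.38 TPM, H2BC12 at 441 ± 32.2 and H2AC18 at 162 ± 7.40. H2BC5 was then at 61.5 ± 2.74 TPM. TPM of a short transcript depends on the length assumed for it, which for these genes varied widely.

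The length behind a TPM value can be read from the deposited counts and TPM. It was calibrated on 357 to 412 genes per library with a single transcript in GENCODE 29. Over those genes it was about transcript length less 207 to 296 bases, with a median deviation of 1.04% to 3.54% per library. Short members can depart from this: H2BC17, with a single model of 381 bases, stood at 193 to 203. This effective length was 221 to 232 bases for H2BC12, 259 to 270 for H2AC18 and 457 to 468 for H1-2 over the 9 libraries. It was 1945 to 1966 bases for H2BC21 and 975 to 988 for H3C10. The longest GENCODE 29 models of H2BC21 and H3C10, which run past the stem-loop, are 2194 and 1237 bases long. Other genes went against their GENCODE 29 model: the effective length was 215 to 226 bases for H2BC8, 188 to 199 for H2BC9, 224 to 232 for H3C8 and 139 to 149 for H4C5, whose single models are 1534, 2060, 2411 and 1487 bases long. For these 4, the length behind the deposited values was that of a much shorter transcript. For a gene with 1 model the length comes from the annotation and not from the reads.

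Where several models exist, the length can move between libraries. For H2AC6 it was 1197 to 1277 bases in control, 1065 to 1140 with As2S2 and 1155 to 1221 with PMA, lowest with As2S2. For H2BC11 it was 273 to 290 bases in control, 304 to 314 with As2S2 and 261 to 277 with PMA, highest with As2S2. For H4C8 it was 472 to 750 in control, 563 to 606 with As2S2 and 747 to 836 with PMA, so the controls overlapped both treatments. These shifts are estimates of the authors' quantification over transcript models and were not tested.

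**Figure D4:**
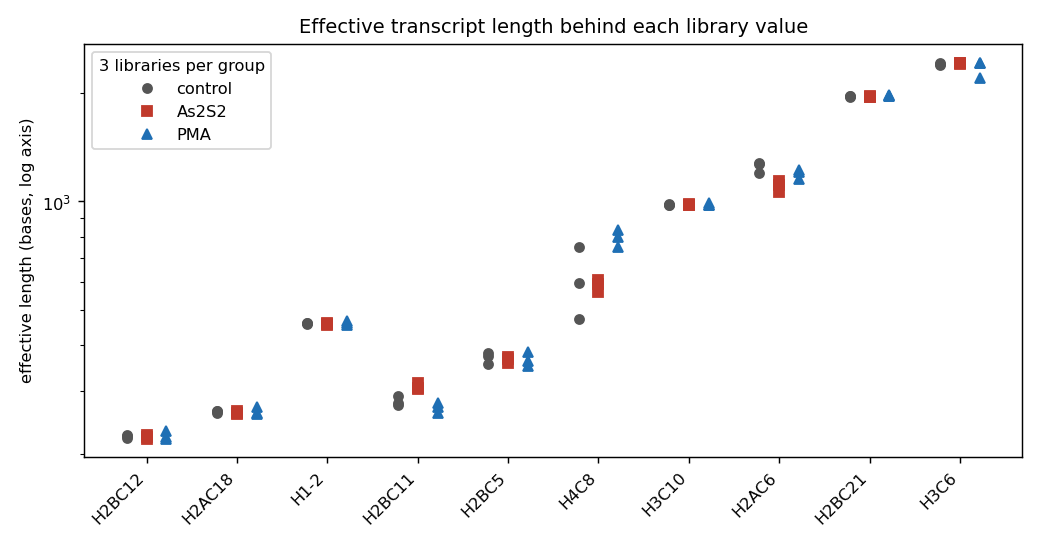
Effective transcript length in bases on a log axis (y axis) for 10 histone genes (x axis), 1 point per library of each group. H2BC12, H2AC18 and H1-2 stay within narrow ranges of short lengths. With As2S2, H2AC6 is lowest and H2BC11 highest, while the control libraries of H4C8 overlap both treatments.

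Set against each other, As2S2 libraries were higher than PMA libraries for 3 tested members and lower for 14 (edgeR, adjusted p under 0.05), and 10 did not pass. Over all genes, 30.9% were higher and 30.6% lower. The 3 were H1-2 at 0.66 ± 0.08 log2 (adjusted p = 2.08e-06), H2BC11 at 0.64 ± 0.10 (adjusted p = 4.24e-05) and H2BC12 at 0.53 ± 0.07 (adjusted p = 5.96e-06). The 14 held 5 H2A, 5 H2B, 1 H3 and 3 H4 members. H2AC18 differed by -0.89 ± 0.10 (adjusted p = 8.92e-07, edgeR), H3C10 by -1.14 ± 0.16 (adjusted p = 1.53e-05) and H2BC8 by -1.51 ± 0.25 (adjusted p = 7.94e-05).

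H2AC6 was near the limit in this comparison, at -0.20 ± 0.08 (adjusted p = 0.0392, edgeR), and did not pass with library totals (-0.02, adjusted p = 0.859), with the length trend removed (-0.06, adjusted p = 0.522) or with no filter on low counts (adjusted p = 0.189). It also did not pass without As2S2 replicate 2 (adjusted p = 0.134), As2S2 replicate 3 (adjusted p = 0.127), PMA replicate 1 (adjusted p = 0.0532), PMA replicate 2 (adjusted p = 0.177) or PMA replicate 3 (adjusted p = 0.0674). H2AC25 at -0.63 ± 0.25 (adjusted p = 0.0422) did not pass when any 1 of 4 libraries was left out. These were As2S2 replicate 1 (adjusted p = 0.0968), As2S2 replicate 2 (adjusted p = 0.127), PMA replicate 1 (adjusted p = 0.169) and PMA replicate 2 (adjusted p = 0.0763).

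Genes around the histone pathway were described from lists, on the TMM scale, against which library totals moved the median of all genes as given above. Each count below is to be read against the 20.3% of all genes that rose and 19.6% that fell with As2S2, and the 30.8% and 31.1% with PMA. Of 11 tested genes listed as replication-independent histone variants, H2AX among them, 8 rose and 0 fell with As2S2 (median log2 fold change 0.37). With PMA, 4 rose and 2 fell (median 0.25). Their expression over the cell cycle was not measured here. The 0 was also 0 at an unadjusted p under 0.05, with DESeq2 and with limma-voom. H3-3A and H3-3B, which encode the replication-independent H3.3, rose by 0.45 ± 0.06 and 0.37 ± 0.07 log2 with As2S2 and by 0.97 ± 0.06 and 0.61 ± 0.07 with PMA. CENPA, the centromeric H3, rose by 0.54 ± 0.10 with As2S2 and fell by 0.79 on the log2 scale with PMA. MACROH2A2 rose by 0.96 ± 0.13 and fell by 1.19 in the same comparisons.

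Of 11 tested genes for transcription at the histone locus body, 5 rose and 0 fell with As2S2 (edgeR, median 0.19; 1 fell at an unadjusted p under 0.05, and 0 with DESeq2 or limma-voom), and 1 rose and 5 fell with PMA (median -0.20). CDK2, the kinase that acts with cyclin E at the start of S phase, rose by 0.66 ± 0.07 log2 with As2S2 (adjusted p = 2.82e-06, edgeR). With PMA its value was 0.05 ± 0.07, and -0.21 with library totals (adjusted p = 0.0156). CASP8AP2 (FLASH), a scaffold of the histone locus body, fell with PMA by 1.15 on the log2 scale, and POU2F1, the factor that binds the octamer printed above, fell by 0.86. Neither passed with As2S2, but without control replicate 2, which stood apart, POU2F1 fell with As2S2 by 0.41 (adjusted p = 0.00655, edgeR), as it did without As2S2 replicate 1 as well (adjusted p = 0.00383). NPAT, the activator of these genes that CDK2 phosphorylates, was picked out after its values were seen: its log2 fold change was 0.47 ± 0.18 with As2S2 (adjusted p = 0.0483, edgeR) and -0.99 ± 0.20 with PMA (adjusted p = 0.000508).

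Of 28 genes for 3′ end formation and stem-loop binding, 5 rose and 6 fell with As2S2 (17.9% and 21.4%, median 0.04), and 7 rose and 10 fell with PMA (25% and 35.7%, median -0.11), shares near those of all genes. SNRPG, a core snRNP protein, rose by 0.39 ± 0.07 log2 with As2S2 and by 1.07 ± 0.07 with PMA. SYMPK and CPSF1, of the cleavage machinery, fell with PMA by 0.77 and 0.67 on the log2 scale and did not pass with As2S2. SLBP, also picked out after its values were seen, had 0.19 ± 0.08 with As2S2 (adjusted p = 0.0515, edgeR) and 0.22 ± 0.08 with PMA (adjusted p = 0.0166). Of 19 tested decay genes, 5 rose and 2 fell with As2S2 (median 0.00), and 3 rose and 10 fell with PMA (median -0.27). LSM1 and LSM3, of the ring that binds the 3′ end of decaying mRNA, rose with PMA by 0.97 ± 0.09 and 0.94 ± 0.09. TUT4, a terminal uridylyltransferase, fell with PMA by 0.99.

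Of 22 histone chaperone genes, 12 rose and 2 fell with As2S2 (median 0.22), and 3 rose and 13 fell with PMA (median -0.38). HJURP, the chaperone of CENPA, rose by 1.21 ± 0.08 log2 with As2S2 and fell by 0.29 with PMA. SSRP1, a subunit of FACT, fell with both, by 0.38 and 0.68.

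Of 30 replication genes of S phase, 13 rose and 6 fell with As2S2 (median 0.23), and 1 rose and 23 fell with PMA (median -0.63). MCM5, a helicase subunit, rose by 0.45 ± 0.08 log2 with As2S2 and fell by 1.15 with PMA, and RRM2, of ribonucleotide reductase, rose by 0.30 ± 0.07 and fell by 0.99. MCM7 fell with both, by 1.29 and 0.99, and MCM3 by 0.44 and 1.08. The tested histone members of the H2A, H2B, H3 and H4 classes had medians of 1.77, 1.45, 1.03 and 0.97 with PMA in the same libraries in which 23 of these 30 genes fell.

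Of 14 genes of cell cycle exit, 1 rose and 5 fell with As2S2 (7.14% and 35.7%, median -0.02). With PMA 4 rose and 5 fell (28.6% and 35.7%, median -0.06), shares near those of all genes. CDKN1A (p21), an inhibitor of cyclin-dependent kinases, rose by 1.22 ± 0.10 log2 with As2S2 (adjusted p = 2.61e-07, edgeR) and by 2.84 ± 0.11 with PMA (adjusted p = 1.62e-12). CDKN2B fell by 1.36 with As2S2 and rose by 1.43 ± 0.10 with PMA. CDKN1C rose with PMA by 1.99 ± 0.22, and its value with As2S2 was 0.50 ± 0.24 (adjusted p = 0.12, edgeR). LIN54, 1 of the 5 that fell with PMA, had a log2 fold change of -0.95 ± 0.17 there (adjusted p = 0.000118, edgeR). Its value with As2S2 was 0.10 ± 0.15 (adjusted p = 0.629).

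**Figure D5:**
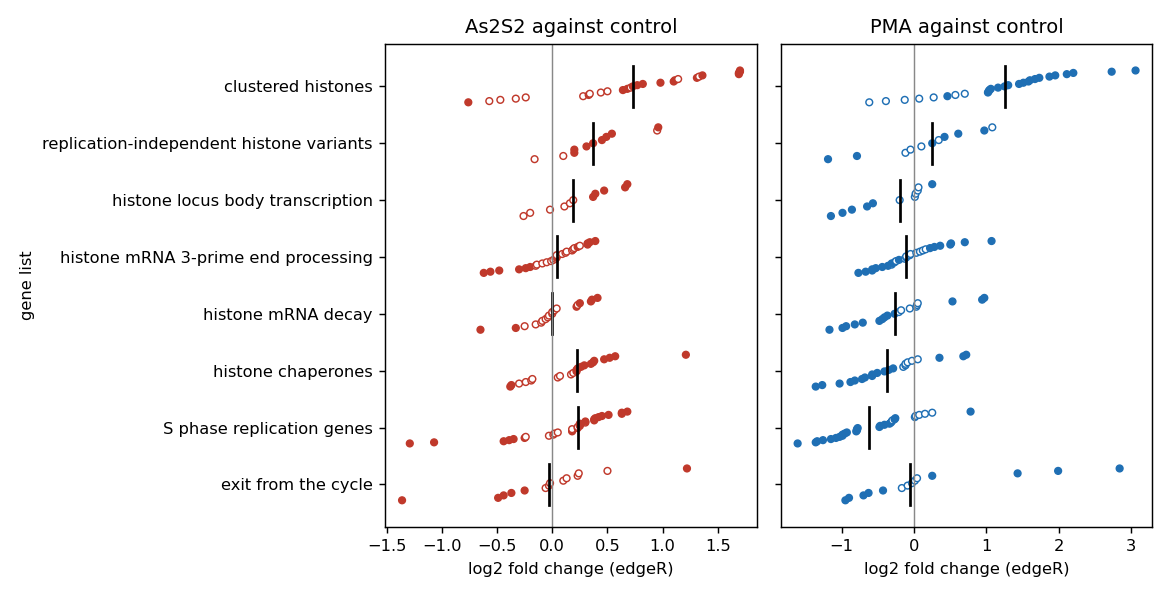
Log2 fold change against control (x axis, edgeR) of each tested gene of 8 lists (y axis), As2S2 in the left panel and PMA in the right; filled points passed an adjusted p under 0.05 and bars mark medians. With PMA the clustered histones have a median of 1.25 and the S phase replication genes one of -0.63.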

How the data were processed

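Poly(A) RNA of MEG-01 cells was sequenced in 9 libraries made with the NEBNext Ultra II kit, per the labels' protocols, and grouped by the sample labels. Per the submitters' processing notes, fastp 0.22.0 and DESeq2 were used. The builds in those notes are of zebrafish, but the IDs in the deposited tables are human Ensembl genes; the organism field of 1 control sample is also not human. For aligner, counter, strand and annotation, the choice was not given in the sources used here; without strand, reads of overlapping genes cannot be told apart. The authors deposited estimated counts (expected counts), not normalized, and TPM values for each gene and library, per the file headers. The authors' own fold changes and adjusted p-values in those tables were not used. Counts were rounded to whole numbers where they were not (per library 89.9% to 91.4% of values, zeros included, already were); 16 of the 27 tested members were whole in all 9 libraries.

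Genes were kept by filterByExpr (14592 genes), scaled by TMM and tested with the quasi-likelihood test of edgeR 4.0.16 in R 4.3.3, all 9 libraries in 1 fit, with Benjamini-Hochberg adjustment over all genes and a threshold of 0.05. CPM are counts per 1e6 of these scaled totals. The biological coefficient of variation was 0.0909. The fit was tested on simulated data. Alternatives used DESeq2 1.42.0, limma 3.58.1 (voom), other scalings and filters, trends with length and GC content, a replicate block and left-out libraries. Members came from the symbol rule; 1 gene that the rule covers is not reported here. The genes named were the 3 most abundant members of each class, the 4 highest and 4 lowest fold changes of each contrast, and up to 4 genes of each list by adjusted p; other members are named to account for them all. The members and lists were chosen with earlier results of these data known.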

Additional observations from a re-analysis of the deposited data

How the results depend on the processing

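Across the alternatives, the number of tested histone members that rose stayed within 1.5 times its value in each comparison. The number that fell with As2S2 went from 1 to 0 at a threshold of 0.01 and without control replicate 2 and As2S2 replicate 1 together, and ran from 0 to 1 with each library left out in turn. The number that fell with PMA went from 0 to 1 with the length trend removed (H2BC17) and to 2 with length and GC trends removed (H4C1 as well). The median log2 fold change ran from 0.66 to 0.91 with As2S2, from 1.09 to 1.45 with PMA and from -0.76 to -0.54 for As2S2 against PMA with single libraries left out. The PMA median was 1.47 under the stricter filter, which left 19 members, 0.94 with the length trend removed and 0.95 with length and GC trends removed. The As2S2 against PMA median was -0.74 under the stricter filter, -0.40 with limma-voom, -0.25 with the length trend removed and -0.26 with length and GC trends removed. With library totals in place of TMM the medians were 0.64, 0.99 and -0.45. The cause was not tested in these cases, beyond the 19 members of the stricter filter. Turned in direction were H2AC6 in As2S2 against PMA with length and GC trends removed (0.00, adjusted p = 0.959, edgeR), H4C15 with As2S2 when summed with H4C14 (1.0) and CDK2 with PMA under library totals (-0.21). In TPM, 7 of 10 log2 ratios of class sums to control moved beyond the spread of the libraries and 0 turned: with PMA, H1 went from 0.78 to 0.56, H2A from 1.11 to 1.30, H2B from 0.92 to 0.71 and H4 from 1.11 to 0.68, and with As2S2, H2A from 0.78 to 0.95, H2B from 1.37 to 1.41 and H4 from 0.62 to 0.35. Without its most abundant member, H2B went from 1.37 to 0.77 with As2S2, H3 from 1.54 to 0.95 with PMA and H4 from 1.11 to 0.79 with PMA. H2A moved up in the same setting, from 0.78 to 0.86 with As2S2 and from 1.11 to 1.56 with PMA. A further choice of members for these sums was not run.

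The replicate number as a block left the counts as they were: 15 rose and 1 fell with As2S2, 20 and 0 with PMA, and 3 and 14 in As2S2 against PMA, with medians of 0.77, 1.23 and -0.61. Same-numbered libraries correlated by 0.242, 0.163 and -0.139 between control and As2S2, and by at most 0.054 in the other pairs of groups, so the numbers were not taken to pair the samples. Among the members named by the rules on abundance and fold change, 44 of 1483 values under an alternative lost their call, 10 gained one and 2 turned. The 1483 include values that had no call to lose. H2AC8, H2AC13, H2BC4, H2BC9, H2BC21 and H4C5 were not among these members and were not followed singly. Members with few counts limit what can be said: 42 of 69 were too low to test.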
